A study of Homo sapiens with 12 samples.

Results

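RNA sequencing of 2 granulosa cell tumor (GCT) cell lines treated with or without 77-39 was examined for 38 direct target genes of the transcription factor p53. The 38 genes were taken from a list of names and not by a cutoff on their measured values. The list was, however, chosen with earlier results of these data known. All of them were found among the 58735 genes of the table. They were 4 genes that feed back on p53, 7 of cell cycle arrest and growth control, 4 of DNA repair and nucleotide supply, 3 death receptors, 7 other apoptosis genes, 5 of metabolism and redox balance, 2 of autophagy and mitochondrial quality, and 6 secreted, surface or other genes. The data comprised 12 libraries, 3 for each of untreated KGN, KGN with 77-39, untreated COV434 and COV434 with 77-39. Both lines were labelled as wild type in genotype and as ovarian GCT cells, each is a single established line, and 77-39, a small molecule inhibitor of the mitochondrial deacetylase SIRT3, was given for 72 h. The dose is labelled as 10 μm/ml, a unit that does not give a concentration, and the same treatment text stands on the control labels, so treatment was taken from the titles. No label says whether the libraries of a group came from separate cultures, so the p-values measure only the spread between these libraries, which may be technical.

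p53 is a DNA-binding protein that is kept low in unstressed cells, mainly by the ubiquitin ligase MDM2, and that accumulates and is modified after DNA damage and other stresses. It binds pairs of short half-sites near its target genes and raises their transcription. Its targets stop the cell cycle, repair DNA, adjust metabolism, start apoptosis, or act back on p53 itself, as MDM2 does in a negative feedback loop. Which targets respond differs between cell types and stresses, and many targets are also driven by other factors, among them ATF4 and CHOP, the transcription factors of the integrated stress response.

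Levels are given as FPKM, fragments scaled by gene length and by a total for the library, so that genes can be compared per length. The reads behind each value were recovered from FPKM and gene length and came to between 15547851 and 18280415 per library. The total implied by the FPKM was 1.073 to 1.103 times these reads in KGN and 0.9107 to 0.9782 times in COV434. It was thus not the plain count of reads, and comparisons between the lines carry this scaling. In these libraries 3 reads in a gene of 1 kb were worth 0.152 to 0.2 FPKM. The share of mitochondrially encoded genes among the reads was between 7.3% and 8.81% for KGN and between 7.71% and 13.51% for COV434, where treated library 1 had the highest. The cell line labels were checked against 9 granulosa cell markers. FOXL2, a transcription factor of granulosa cells that KGN is known to express, had a mean of 0.00581 FPKM in the untreated libraries labelled KGN (1 read in all 3) and of 12.4 ± 0.786 FPKM (SD, n = 3) in those labelled COV434. INHBB, an inhibin subunit, was likewise at 0.00561 and 6.95 FPKM. FSHR, the receptor for follicle-stimulating hormone, had no read in any library, and the means of STAR, CYP19A1 and NR5A1, genes of steroid synthesis and its control, were at most 0.117 FPKM in every group. AMH, the anti-Müllerian hormone, was present in both (4.55 ± 0.29 FPKM in untreated KGN and 8.24 ± 1.02 in untreated COV434), and INHA, another inhibin subunit, was at 1.06 and 4.75 FPKM. INHBA, a further subunit, was near 0 in both, with 35 reads in untreated KGN and 2 in untreated COV434. FOXL2 thus went against the label of KGN, and INHBB, INHA and AMH were also lower in the untreated libraries labelled KGN. FSHR, STAR, CYP19A1 and NR5A1 did not separate the lines. The lines are named below as labelled. Which line each set of libraries holds was not tested.

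A perfect p53 half-site was searched for in the RefSeq promoter windows of the members (build GRCh38.p14, 250 bases before to 50 bases after each annotated start). The half-site was taken as 10 bases made of 3 purines, a C, 2 bases that are A or T, a G and 3 pyrimidines. It reads alike on both strands, so a search of one strand covers both, and no other motif was searched. Windows were found for 32 members, and 7 of these, AEN, DDB2, EI24, FAS, FDXR, PLK2 and SESN1, held a perfect half-site in a window. By window these were 7 of 48 (14.6%), against 6.63% of all 35116 windows in the genome table. The stretches are shown because their genes include members that moved in opposite directions, and capitals mark the half-sites.
AEN (chr15:88621296-88621325, plus strand): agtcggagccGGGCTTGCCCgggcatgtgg
DDB2 (chr11:47214975-47215004, plus strand): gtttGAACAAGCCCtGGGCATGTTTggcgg
EI24 (chr11:125569457-125569486, plus strand): cgtgcggcccGGGCATGCCCagtgcgggcg
FAS (chr10:88991299-88991328, plus strand): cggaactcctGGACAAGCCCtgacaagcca
FDXR (chr17:74872986-74873015, minus strand): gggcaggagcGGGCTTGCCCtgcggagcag
PLK2 (chr5:58460199-58460228, minus strand): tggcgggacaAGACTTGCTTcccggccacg
SESN1 (chr6:109009018-109009047, minus strand): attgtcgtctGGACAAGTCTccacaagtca
DDB2 was the only one of the 7 with a second perfect half-site, 1 base after the first, and its pair began 6 bases into the transcript of that start. The half-sites of the other genes began between 10 and 132 bases before their starts. A match is a description of these letters and not evidence of binding, and the windows of other members, MDM2 among them, say nothing on sites outside these bases.

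In the libraries labelled KGN, 16 members rose with 77-39 and 3 fell at an adjusted p under 0.05, of 36 that could be tested (mean of at least 1 FPKM). Among all 12671 genes tested, 17.6% rose and 16.4% fell by the same test. The members that rose included GDF15, RRM2B, DRAM1, ZMAT3, SESN2 and TNFRSF10B, and those that fell were TP53I3, DDB2 and PLK2. The changes were small: the largest was 0.76 on the log2 scale (GDF15), and 7 called members moved by more than 0.5. At an unadjusted p under 0.05, the threshold of the study, 22 members were higher and 5 lower, against 23.7% and 21.6% of all genes. The median log2 fold change was 0.18 over the 36 members and 0.01 over all genes tested. When all 12 libraries were fitted together, 8 members remained called as higher in KGN. That fit called 446 of all 13127 genes as higher, against 2230 of 12671 in the main fit. A lower level in bulk RNA can come from fewer cells of a type or from less RNA per cell, which cannot be told apart. Fold changes are on the scale of log2(FPKM + 1), which understates the change of genes with low levels.

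**Figure D1:**
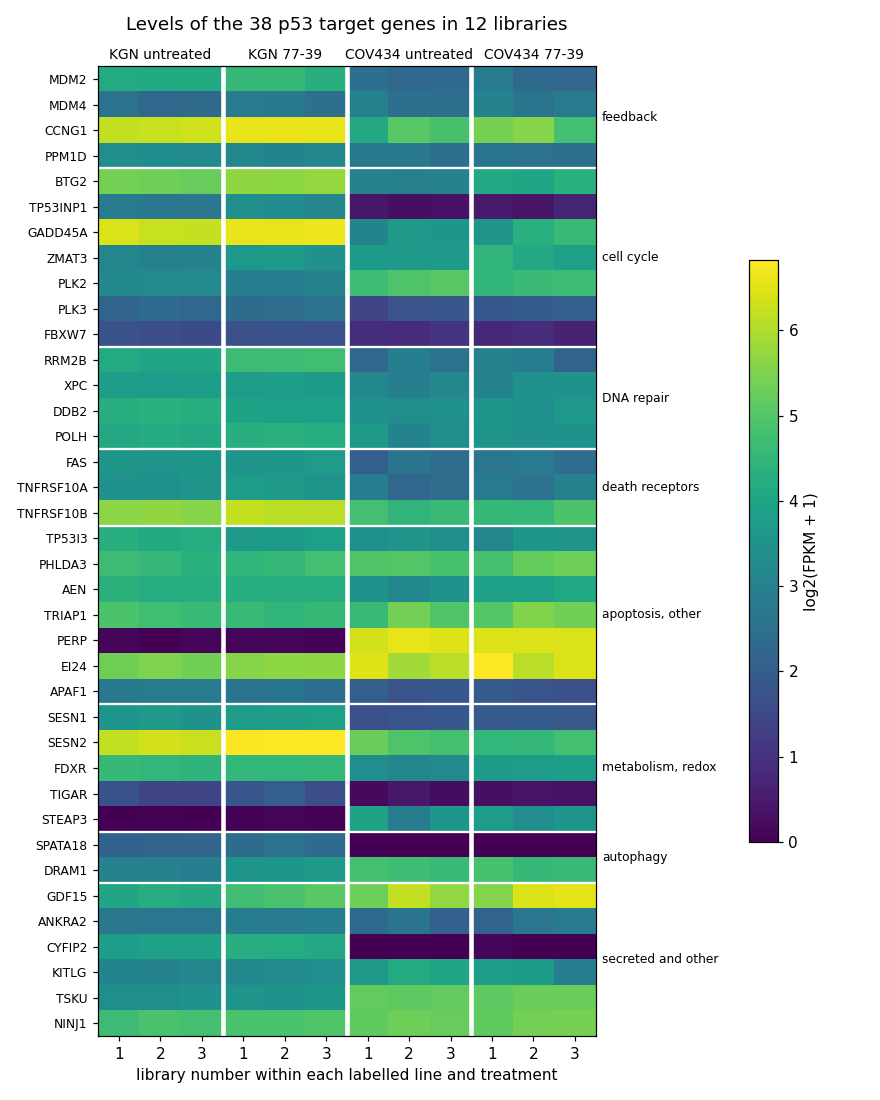
Levels of the 38 members (rows, grouped by role) in the 12 libraries (columns), coloured by log2(FPKM + 1). PERP and STEAP3 are dark in all libraries labelled KGN, SPATA18 and CYFIP2 in those labelled COV434, and the step between treated and untreated libraries is small beside the step between the lines.

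In the libraries labelled COV434, no member passed an adjusted p of 0.05 among the 33 tested, where 0.0415% of all 12060 genes did. At an unadjusted p under 0.05, 5 members were higher (BTG2, FDXR, AEN, GADD45A and ZMAT3) and none was lower, against 3.52% and 4.49% of all genes. Untreated and treated libraries with the same number deviated together in COV434 for numbers 1 and 2, and less so for number 3. A fit with the library number as a block called BTG2 as the 1 member that rose (0.323% of all genes rose and 0.398% fell by that test). At an unadjusted p that paired fit gave 9 members higher and 2 lower, against 6.85% and 7.57% of all genes. The median log2 fold change was 0.17 over the 33 members and -0.02 over all genes. The spread between libraries was wider than in KGN: the standard errors ran from 0.13 to 0.31 in COV434 and from 0.04 to 0.14 in KGN.

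**Figure D2:**
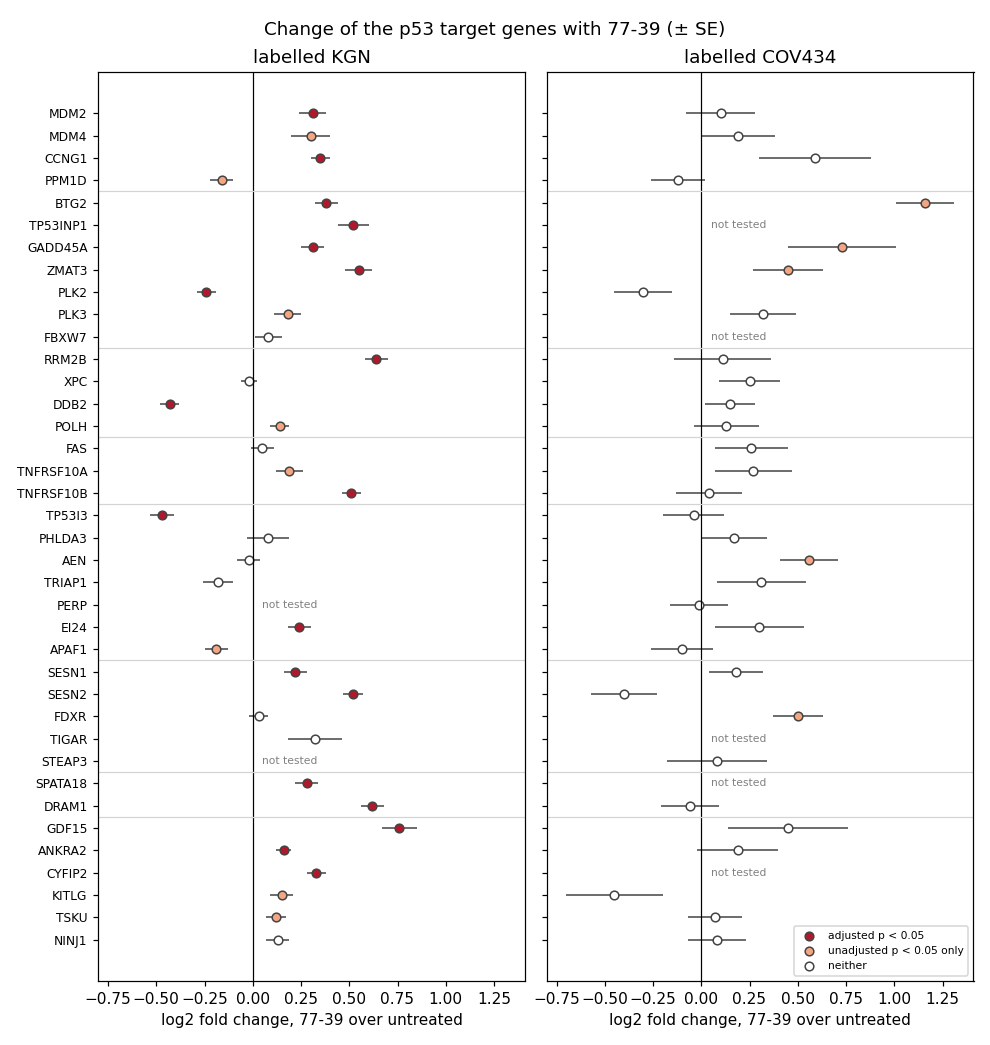
Log2 fold change of each member with 77-39 in the libraries labelled KGN (left) and COV434 (right), on the log2(FPKM + 1) scale, with SE as horizontal bars. Dark red marks an adjusted p under 0.05 and light red an unadjusted p under 0.05 only; 19 members are dark red on the left and none on the right, where BTG2 lies furthest from 0 at 1.16.

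Among the genes that feed back on p53, MDM2, the ubiquitin ligase that marks p53 for degradation, was at 16.9, 16.8 and 16.8 FPKM in the untreated libraries labelled KGN and at 22.2, 22.6 and 18.7 FPKM in the treated ones. All treated libraries were above all untreated ones, and the third stood well below the other two. MDM2 rose by 0.31 ± 0.07 (SE) on the log2 scale (adjusted p = 0.0178). The call was lost without untreated library 2 (adjusted p = 0.0527), untreated library 3 (0.0553), treated library 1 (0.0615) or treated library 2 (0.0629), where the difference was 0.26 to 0.31. Fits that left out 1 KGN library called 1380 to 2058 of all genes as higher, against 2230 in the main fit. A call lost in them thus does not show that 1 library carried it. MDM2 was called in 7 of 13 alternative fits, whose adjusted p ran from 0.00223 to 0.22. In the libraries labelled COV434, MDM2 was at 4.61, 3.92 and 4.07 FPKM untreated and at 6.09, 4.07 and 3.8 FPKM treated. These groups overlapped, and the difference of 0.1 ± 0.18 did not pass (adjusted p = 0.974). About 9.21% of the exon bases of MDM2 are shared with other genes, and the strand setting of the counting is not stated.

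MDM4, a relative of MDM2 that blocks the transactivation domain of p53, was at 4.97, 3.91 and 4.1 FPKM in untreated and at 6.06, 5.79 and 4.77 FPKM in treated KGN. The lowest treated library lay below the highest untreated one, and the difference of 0.30 ± 0.1 missed the threshold (adjusted p = 0.0652). It passed without untreated library 1 (0.0293) or treated library 3 (0.0296). In COV434 MDM4 was at 6.97, 4.57 and 4.51 FPKM untreated and at 7.3, 5.33 and 5.97 FPKM treated, again with overlap (0.19 ± 0.19, adjusted p = 0.904). CCNG1, a cyclin that recruits a phosphatase to MDM2, rose in KGN from 75.1 ± 3.6 to 95.7 ± 1.27 FPKM (log2 fold change 0.35, adjusted p = 0.00294). Its call was lost only in the fit of all 12 libraries (adjusted p = 0.453). In COV434 its means were 25.3 ± 7.97 and 38.5 ± 10.8 FPKM, a difference of 0.59 ± 0.29 that did not pass. PPM1D, the phosphatase WIP1 that switches p53 off, was at 8.91 ± 0.489 and 7.86 ± 0.345 FPKM in KGN (-0.16, adjusted p = 0.0639) and at 5.42 and 4.92 FPKM in COV434 (-0.12, adjusted p = 0.938).

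Of the 7 cell cycle and growth control genes, 4 rose and 1 fell in KGN (17.6% and 16.4% of all genes), and 3 of the 5 tested in COV434 were higher at an unadjusted p (3.52% of all genes). Counts in so small a group say little beside these shares. BTG2 (chr1:203305491-203309602 on GRCh38, plus strand), an antiproliferative factor that acts on cell cycle entry and mRNA decay, had the largest fold change of the members in COV434. There it was at 7.09, 6.83 and 7.09 FPKM untreated and at 16.3, 15.0 and 19.6 FPKM treated. Every treated library was above every untreated one, and the log2 fold change was 1.16 ± 0.15 (adjusted p = 0.066). In the paired fit the adjusted p was 0.0329, and over the 13 alternatives it ran from 0.000172 to 0.349, with 3 calls. In KGN BTG2 started higher, at 41.1, 38.9 and 36.5 FPKM, and rose to 50.9, 49.2 and 52.1 FPKM (0.38 ± 0.06, adjusted p = 0.00312), a call that held in all 13 alternatives.

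ZMAT3, an RNA-binding zinc finger protein that regulates splicing, was at 7.58, 7.04 and 7.21 FPKM in untreated KGN and at 11.5, 11.9 and 10.0 FPKM with 77-39. It rose by 0.55 ± 0.07 (adjusted p = 0.00188) without overlap. The COV434 libraries gave 12.1, 11.9 and 11.9 FPKM untreated and 21.2, 16.3 and 13.5 FPKM treated, so that the untreated libraries lay close together and the treated ones far apart (0.45 ± 0.18, adjusted p = 0.552). Its unadjusted p was above 0.05 without any 1 of the untreated libraries, and without treated library 1 or 2, where the difference was 0.29 to 0.47.

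GADD45A, a stress sensor of growth arrest and DNA repair, was at 85.1, 75.4 and 74.2 FPKM in untreated KGN and at 94.9, 96.0 and 99.8 FPKM with 77-39 (0.31 ± 0.06, adjusted p = 0.011). Its call was lost only in the fit of all 12 libraries (adjusted p = 0.507). The values in COV434 were 7.44, 11.7 and 10.9 FPKM untreated and 10.8, 19.1 and 23.4 FPKM treated (0.73 ± 0.28, adjusted p = 0.538). Treated library 1, the one with the highest mitochondrial share, was the only treated library within the untreated range. The unadjusted p exceeded 0.05 without untreated library 1 (difference 0.55), treated library 2 (0.65) or treated library 3 (0.51).

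TP53INP1, a stress protein that promotes autophagy and p53 phosphorylation, rose in KGN from 5.74 ± 0.243 to 8.66 ± 0.943 FPKM (log2 fold change 0.52 ± 0.08, adjusted p = 0.0034), while in COV434 its means stayed under 1 FPKM (0.277 and 0.433). PLK2, a kinase of centriole duplication, was at 8.03, 8.34 and 8.31 FPKM in untreated KGN and at 6.65, 6.68 and 7.08 FPKM with 77-39, without overlap. PLK2 fell by 0.24 on the log2 scale (SE 0.05, adjusted p = 0.00764), a call lost only in the fit of all 12 libraries (0.176). In COV434 its means were 28.9 ± 3.51 and 23.3 ± 1.9 FPKM, also without overlap, and the difference of -0.30 ± 0.15 did not pass (adjusted p = 0.729). PLK3, a related stress-responsive kinase, had means of 3.88 and 4.52 FPKM in KGN (adjusted p = 0.078) and of 2.22 and 3 FPKM in COV434 (adjusted p = 0.731). FBXW7, a ubiquitin ligase subunit that targets cyclin E and MYC, was at 2.07 and 2.24 FPKM in KGN (adjusted p = 0.434) and under 1 FPKM in COV434 (0.898 and 0.703).

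The DNA repair and nucleotide supply genes moved in both directions in KGN. RRM2B, the p53-induced subunit of ribonucleotide reductase, was at 16.9, 14.8 and 15.3 FPKM untreated and at 24.6, 24.9 and 25.4 FPKM treated, with no overlap. It had the smallest p of all members in KGN (0.64 ± 0.06, adjusted p = 0.000556), and its call was lost only in the fit of all 12 libraries (0.0821). In COV434 RRM2B was at 3.81, 6.61 and 4.8 FPKM untreated and at 7.02, 6.29 and 3.57 FPKM treated, and the groups overlapped (0.11 ± 0.25, adjusted p = 0.983). DDB2 (chr11:47214465-47239240, plus strand), the damage recognition subunit of nucleotide excision repair and the gene with the paired half-sites above, went the other way in KGN. It was at 18.9, 19.5 and 18.6 FPKM untreated and at 14.5, 13.5 and 13.5 FPKM with 77-39, a clear separation. DDB2 fell by 0.43 (SE 0.05, adjusted p = 0.00105), and the call held in all 13 alternatives. In COV434 it was at 9.75, 9.36 and 9.67 FPKM untreated and at 11.0, 9.81 and 11.5 FPKM treated, just without overlap (0.15 ± 0.13, adjusted p = 0.892). XPC, which recognises damage in the same repair pathway, was at 12.8 ± 0.0535 and 12.6 ± 0.429 FPKM in KGN and at 7.56 ± 0.779 and 9.2 ± 1.52 FPKM in COV434, and POLH, the polymerase that copies past ultraviolet lesions, at 16.6 and 18.4 FPKM in KGN and 9.45 and 10.3 FPKM in COV434. Neither passed an adjusted p in either line. XPC shares 30.4% of its exon bases with other genes, and POLH has a pseudogene.

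Among the death receptors, which carry signals of extracellular ligands into apoptosis, TNFRSF10B, the TRAIL receptor DR5, was at 48.8, 50.3 and 47.3 FPKM in untreated KGN. With 77-39 it was at 73.5, 67.8 and 68.3 FPKM, and it rose by 0.51 ± 0.05 (adjusted p = 0.000837). In COV434 its means were 23.8 ± 2.74 and 24.5 ± 3.96 FPKM (0.04 ± 0.17, adjusted p = 0.99). TNFRSF10A, the other TRAIL receptor with a death domain, was at 10.1 and 11.6 FPKM in KGN (0.19, adjusted p = 0.0779) and passed only without treated library 3 (0.0262). In COV434 it was at 4.89 and 6.01 FPKM (adjusted p = 0.846), and 16.6% of its exon bases are shared. FAS, the receptor for FAS ligand, was at 11 and 11.4 FPKM in KGN (adjusted p = 0.592) and at 4.25 and 5.21 FPKM in COV434 (adjusted p = 0.845).

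Of the other apoptosis genes, EI24 rose and TP53I3 fell in KGN. TP53I3, also named PIG3, a quinone reductase linked to reactive oxygen species, was at 18.5, 16.7 and 17.6 FPKM in untreated and at 11.8, 12.2 and 13.4 FPKM in treated KGN, without overlap. TP53I3 fell by 0.47 (SE 0.06, adjusted p = 0.00228), the largest decrease of any member in that line, in all 13 alternatives. In COV434 its means were 9.9 ± 0.489 and 9.7 ± 1.8 FPKM (-0.04 ± 0.16, adjusted p = 0.99). EI24, a membrane protein of the endoplasmic reticulum with a role in autophagy, was at 41.5 ± 2.36 and 49.1 ± 1.99 FPKM in KGN (0.24 ± 0.06, adjusted p = 0.0186), a call lost without untreated library 3 (0.0681) or treated library 2 (0.0694). COV434 had 71.7 ± 15.7 and 88.7 ± 20.4 FPKM (0.30 ± 0.23, adjusted p = 0.849), and it has 4 pseudogenes by symbol that could share reads.

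AEN (chr15:88621296-88632282, plus strand), a nuclease that cuts DNA and RNA in apoptosis, had an unadjusted p under 0.05 in COV434 and not in KGN. It was at 10.3, 8.13 and 9.9 FPKM in untreated COV434 and at 13.9, 13.4 and 15.8 FPKM with 77-39, without overlap (0.56 ± 0.15, adjusted p = 0.283). In KGN AEN was at 20, 17.5 and 17.9 FPKM untreated and at 18, 18.2 and 18.3 FPKM treated (-0.02 ± 0.06, adjusted p = 0.838). The unadjusted call in COV434 held in all 13 alternatives, and AEN passed an adjusted p there in the fit of all 12 libraries (0.0116; range over the alternatives 0.0116 to 0.851). APAF1, the core of the apoptosome, was at 5.83 and 5 FPKM in KGN (-0.19, adjusted p = 0.0575) and at 2.74 and 2.5 FPKM in COV434. TRIAP1, an inhibitor of apoptosis in mitochondria, was at 25.6 and 22.4 FPKM in KGN (-0.18, adjusted p = 0.131) and at 31.7 and 39 FPKM in COV434 (0.31, adjusted p = 0.844), and like CCNG1 it has 1 pseudogene. PHLDA3, a repressor of AKT, was at 22.1 and 23.5 FPKM in KGN and at 29.8 and 33.9 FPKM in COV434, with 19.1% of its exon bases shared. PERP, a membrane protein of desmosomes, was not tested in KGN, where it had 12 reads in the 3 untreated and 16 in the 3 treated libraries, and was at 87.6 ± 7.19 and 87 ± 0.456 FPKM in COV434 (-0.01 ± 0.15).

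Among the metabolism and redox genes, SESN2 (chr1:28259527-28282491, plus strand), a sestrin that restrains mTORC1 when leucine is short and is a known target of ATF4 as well as of p53, had fold changes of opposite sign in the lines. In KGN it was at 72.6, 80.8 and 76 FPKM untreated and at 108, 110 and 112 FPKM with 77-39 (0.52 ± 0.05, adjusted p = 0.000892). Untreated COV434 had 37.8, 29.7 and 26.8 FPKM and treated COV434 22, 22.2 and 26.3 FPKM, with every treated library below every untreated one (-0.40 ± 0.17, adjusted p = 0.63). Its unadjusted p in COV434 was above 0.05 in the main fit. It was under 0.05 with a filter at 0.1 FPKM, with no filter, in the paired fit and in 1 fit of all 12 libraries. The same held without untreated library 3 (difference -0.50) and without treated library 3 (-0.48). SESN1, the sestrin driven mainly by p53, rose in KGN from 11 ± 0.66 to 12.9 ± 0.564 FPKM (0.22 ± 0.06, adjusted p = 0.0267), a call lost without untreated library 3 (0.0851), treated library 2 (0.0726) or treated library 3 (0.0656). In COV434 SESN1 was at 2.41 ± 0.264 and 2.85 ± 0.1 FPKM (0.18 ± 0.14, adjusted p = 0.868).

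FDXR (chr17:74862497-74873031, minus strand), the ferredoxin reductase of mitochondrial electron transfer, was at 9.14, 7.8 and 8.69 FPKM in untreated COV434. With 77-39 it was at 12.1, 12.5 and 12.8 FPKM, above all untreated libraries (0.50 ± 0.13, adjusted p = 0.278). In KGN it was at 22.6, 21.8 and 20.5 FPKM untreated and at 21.8, 22 and 22.5 FPKM treated, with overlap (0.03 ± 0.05, adjusted p = 0.664). TIGAR, a bisphosphatase that lowers glycolytic flux, was at 1.88 and 2.6 FPKM in KGN (0.32 ± 0.14, adjusted p = 0.116) and under 1 FPKM in COV434, and 45.6% of its exon bases are shared with other genes. STEAP3, a ferrireductase of iron uptake, had 4 and 14 reads in untreated and treated KGN with 11% of its exon bases shared, and was at 10.5 ± 3.85 and 10.7 ± 1.63 FPKM in COV434 (0.08 ± 0.26, adjusted p = 0.988).

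Both autophagy genes rose in KGN. DRAM1 (chr12:101877351-102012130, plus strand), a lysosomal membrane protein that promotes autophagy, was at 7.19, 7.1 and 6.55 FPKM untreated and at 10.5, 11.3 and 11.8 FPKM treated (0.62 ± 0.06, adjusted p = 0.000709), in all 13 alternatives. COV434 had 26.8, 25.1 and 23.5 FPKM untreated and 27.3, 22.2 and 23 FPKM treated, with overlap (-0.06 ± 0.15, adjusted p = 0.984). SPATA18, also named MIEAP, a protein of mitochondrial quality control, rose in KGN from 3.5 ± 0.179 to 4.47 ± 0.294 FPKM (0.28 ± 0.06, adjusted p = 0.0141; 0.0505 without treated library 2). It had 0 reads in all 6 libraries labelled COV434, where 3 reads would be worth 0.0362 FPKM in the untreated and 0.0372 FPKM in the treated libraries.

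Of the secreted, surface and other genes, GDF15, ANKRA2 and CYFIP2 rose in KGN. GDF15, a secreted stress cytokine of the TGF-β family that is also known to be driven by ATF4 and CHOP, was at 15.5, 17.6 and 16.4 FPKM untreated and at 25.6, 28.1 and 32.7 FPKM treated (0.76 ± 0.09, adjusted p = 0.00162). It lost its call only when all 12 libraries were fitted together (adjusted p = 0.108). In COV434 GDF15 was at 38.9, 72 and 51.1 FPKM untreated and at 46.1, 87 and 92.3 FPKM treated, with overlap (0.45 ± 0.31, adjusted p = 0.83). Its lowest treated value was in treated library 1, and without that library the difference was 0.76, with an unadjusted p under 0.05 and an adjusted p = 0.404. CYFIP2, a component of the WAVE complex that regulates actin, rose in KGN from 13.6 ± 0.606 to 17.4 ± 0.743 FPKM (0.33 ± 0.05, adjusted p = 0.00414). In COV434 CYFIP2 had 0 reads in the untreated libraries and 15, 1 and 0 reads in the treated ones.

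ANKRA2, an ankyrin repeat adaptor, was at 5.43 ± 0.0647 and 6.18 ± 0.0877 FPKM in KGN (0.16 ± 0.04, adjusted p = 0.0256), a call kept in 5 of 13 alternatives. It was lost without untreated library 2 (0.0734) or 3 (0.0829), or without treated library 1 (0.0776), 2 (0.0649) or 3 (0.0544). KITLG, the ligand of the receptor KIT that granulosa cells secrete, was at 7.56 and 8.5 FPKM in KGN (0.15, adjusted p = 0.0941) and at 14.6 ± 2.66 and 10.7 ± 3.45 FPKM in COV434 (-0.45 ± 0.25, adjusted p = 0.756). TSKU, a secreted proteoglycan, was at 9.64 and 10.6 FPKM in KGN and at 34.8 and 36.7 FPKM in COV434. NINJ1, which mediates rupture of the plasma membrane in lytic cell death, was at 26.3 and 29 FPKM in KGN and at 36.9 and 39.3 FPKM in COV434. Neither passed the test in either line.

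The response was compared between the lines by the interaction of line and treatment over all 12 libraries. The change was more positive in KGN for 2 of the 38 members (SESN2 and DRAM1) and more negative for 3 (BTG2, DDB2 and FDXR), where 1.85% and 1.74% of all 13127 genes were called. The log2 fold change in KGN minus that in COV434 was 0.91 ± 0.18 for SESN2 (adjusted p = 0.0212) and 0.68 ± 0.14 for DRAM1 (0.0236). It was -0.78 ± 0.14 for BTG2 (0.0153), which was higher with 77-39 in both lines. For DDB2 it was -0.58 ± 0.11 (0.0193), and for FDXR -0.47 ± 0.11 (0.0446). The next member was AEN (-0.58 ± 0.14, adjusted p = 0.0534), which passed without untreated library 1 of COV434 (0.0276), without its treated library 1 (0.0434) and with the library number as a block (0.0443).

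These calls were lost in many fits that left out 1 library. Without any 1 of the 6 KGN libraries, SESN2, DRAM1, DDB2 and FDXR were no longer called, with adjusted p from 0.0519 to 0.13. The difference of SESN2 stayed between 0.88 and 0.95 in these 6 fits. The same fits called fewer of all genes, between 58 and 106 in each direction against 243 and 229. A lost call thus does not show that 1 library drove the difference. BTG2 was lost without untreated library 2 (0.0532), treated library 1 (0.0535) or treated library 2 (0.0554) of KGN. Without treated library 2 of COV434 the calls of SESN2 (0.0525), DRAM1 (0.0563) and FDXR (0.0902) were lost. FDXR also lost its call without untreated library 2 (0.0722), untreated library 3 (0.0894) or treated library 3 (0.0596) of COV434, and in the paired fit (0.0626). Without treated library 1 of COV434, TP53I3 was called as well (-0.57, adjusted p = 0.02), and without treated library 3, TNFRSF10B (0.59, adjusted p = 0.0444). Across these omissions the differences of the 5 genes kept their directions.

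**Figure D3:**
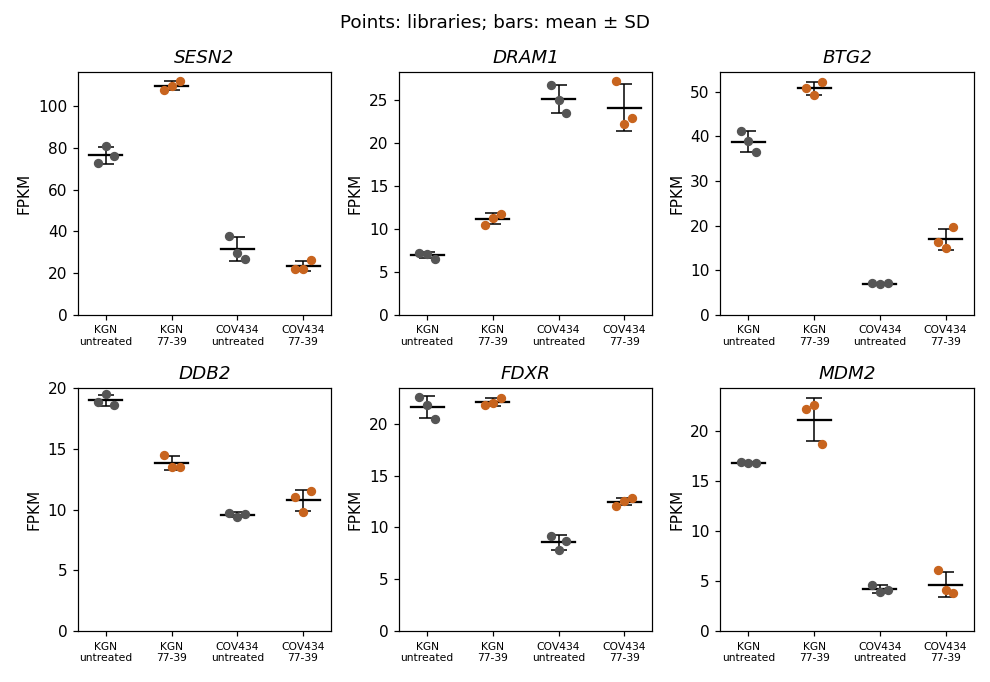
FPKM of the 5 members whose response differed between the lines, and of MDM2, in each library (points), with mean and SD as bars, by labelled line and treatment. SESN2 lies higher with 77-39 in KGN (108 to 112 FPKM) and lower in COV434 (22 to 26.3 FPKM), and BTG2 lies higher in both lines.

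Of the 31 members tested in both lines, 20 had a positive log2 fold change in both, 4 a negative one in both, 3 were positive in KGN and negative in COV434, and 4 the reverse. The same sign was thus found for 77.4% of these members, against 55.7% of the 10235 genes tested in both lines, and a positive sign in both for 64.5% against 26.3%. These are counts of signs, most of them from genes that passed no test in COV434.

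Most members differed between the untreated lines. Of the 38, 24 were higher in untreated KGN than in untreated COV434 and 11 were lower, where 32.6% and 36.4% of all 13098 genes were called; MDM4, TRIAP1 and ANKRA2 did not pass. For 7 members that were under 1 FPKM in one untreated line (PERP and STEAP3 in KGN, and CYFIP2, SPATA18, TP53INP1, TIGAR and FBXW7 in COV434) the filter was passed only through the other line, so their calls are no support. Of the other 31, 19 were higher and 9 lower in KGN, against 28.1% and 34.3% of the 10182 genes at 1 FPKM or more in both. All members of DNA repair and all death receptors were higher in KGN, as were MDM2 (16.8 against 4.2 FPKM), CCNG1 and PPM1D. The 4 largest differences in that direction, on the log2(FPKM + 1) scale, were those of CYFIP2 (3.87 ± 0.07), GADD45A (2.87 ± 0.17), TP53INP1 (2.40 ± 0.08) and BTG2 (2.31 ± 0.08). The adjusted p was 8.71e-06 for GADD45A and 8.24e-07 for BTG2, and none is given for the other two, which passed the filter through KGN alone. CYFIP2 was at 12.9, 13.9 and 14 FPKM in KGN, which is at least 799-fold higher than the 0.017 FPKM that 3 reads per library would give in COV434. By the same floor SPATA18 was at least 96.6-fold higher. GADD45A stood at 78.2 FPKM against 10 FPKM and TP53INP1 at 5.74 against 0.277 FPKM, and no library of one line overlapped with the other.

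The largest differences in the other direction were those of PERP (-6.40 ± 0.09), STEAP3 (-3.44 ± 0.24), TSKU (-1.75 ± 0.07) and DRAM1 (-1.72 ± 0.09). The adjusted p was 1.81e-06 for TSKU and 4.19e-06 for DRAM1, and PERP and STEAP3 are described without a test. PERP was at 80.1, 94.5 and 88.1 FPKM in COV434 and had 6, 1 and 5 reads in KGN. STEAP3 was at 14.1, 6.47 and 11 FPKM in COV434 and had 1, 2 and 1 reads in KGN. TSKU was at 35.1, 34.2 and 35.1 FPKM against 9.54, 9.54 and 9.84 FPKM, with no overlap. PLK2 (28.9 against 8.23 FPKM) and GDF15 (54 against 16.5 FPKM) were also lower in KGN. Of the 9 granulosa cell markers, FOXL2, INHBB, INHA and AMH were lower in the libraries labelled KGN, and their part in this comparison was not tested.

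**Figure D4:**
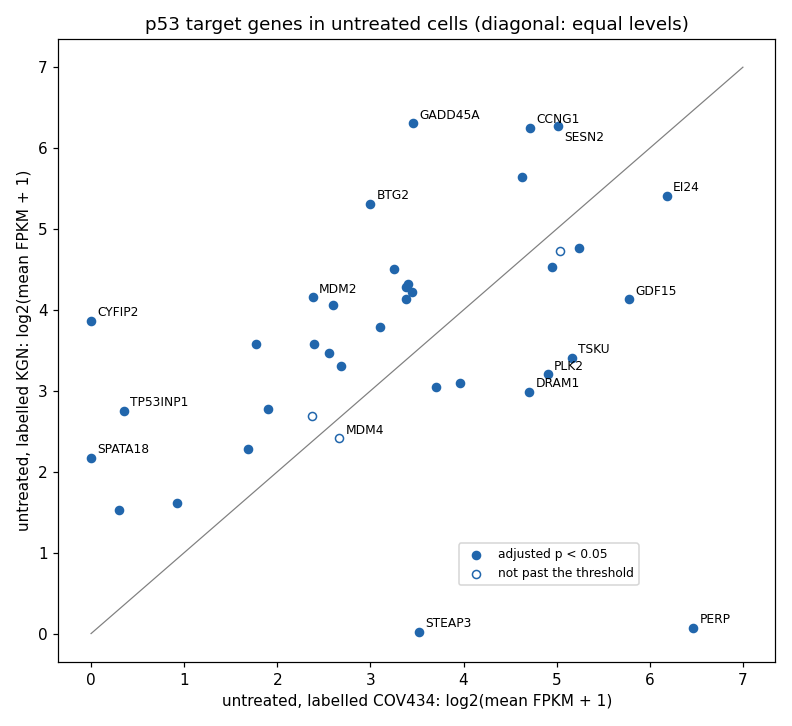
Mean level of each member in the untreated libraries labelled COV434 (x axis) and KGN (y axis), both as log2(mean FPKM + 1), with a diagonal of equal levels. Filled points had an adjusted p under 0.05, which is no support for the 7 members under 1 FPKM in one line; PERP and STEAP3 lie far below the diagonal and CYFIP2, GADD45A, TP53INP1 and BTG2 far above it.

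A further 48 p53 targets, written out by hand, were examined for comparison. In KGN 7 of 39 tested rose and 4 fell, with a median log2 fold change of 0.05; the share that rose was near the 17.6% of all genes, and the share that fell was below their 16.4%. In COV434 none of 41 passed an adjusted p, 7 were higher at an unadjusted p (3.52% of all genes) and none was lower (4.49%). CDKN1A, which encodes the cyclin-dependent kinase inhibitor p21, was at 74.5, 74.4 and 68.3 FPKM in untreated and at 72.9, 74.5 and 77.2 FPKM in treated KGN (0.05 ± 0.05, adjusted p = 0.499). In COV434 CDKN1A was at 55.7, 55.8 and 58.8 FPKM untreated and at 87.6, 94.5 and 89.9 FPKM treated, without overlap (0.67 ± 0.14, adjusted p = 0.17). The paired fit called it (adjusted p = 0.0475; range over the 13 alternatives 0.00133 to 0.673), and the response differed between the lines (-0.62 ± 0.11, adjusted p = 0.0183, called in 14 of 18 alternatives). The call of that difference was lost without untreated library 1 (0.0519), untreated library 2 (0.0678), treated library 1 (0.0689) or treated library 2 (0.0673) of KGN.

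BAX, an effector of mitochondrial apoptosis, was at 44.7 ± 3.68 and 44.6 ± 3.79 FPKM in KGN and at 13.9 ± 4.03 and 22.3 ± 7.88 FPKM in COV434 (0.62 ± 0.31, adjusted p = 0.7). Without treated library 1 of COV434 its difference was 0.93 (adjusted p = 0.301). BBC3, which encodes PUMA, was at 11.2 and 10.3 FPKM in KGN and at 3.47 and 3.42 FPKM in COV434, and PMAIP1, which encodes NOXA, at 1.38 and 1.76 FPKM in KGN and 20.1 and 18.9 FPKM in COV434, and neither passed in either line. Among those called in KGN with the smallest p, CMBL (0.49), TNFRSF10D (0.34) and EDA2R (0.22) rose and SAC3D1 (-0.58), PIDD1 (-0.43) and CDIP1 (-0.19) fell. The call of CDIP1 was lost without untreated library 2 or 3 or treated library 1 or 2 (adjusted p from 0.0785 to 0.0915). In the paired fit of COV434 the call next to CDKN1A was TRIM22, at 1.74 ± 0.475 and 5.82 ± 0.549 FPKM (1.33, adjusted p = 0.0424; range over the alternatives 0.000368 to 0.261).

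Genes that act on p53, and genes of the factors that share targets with it, were measured beside the members. Of 15 regulators of p53, 2 rose and 2 fell among the 14 tested in KGN, no more often than the 17.6% and 16.4% of all genes. The damage kinases ATM (0.31, adjusted p = 0.0194) and ATR (0.38, adjusted p = 0.00999) rose in KGN, where the call of ATM was lost without untreated library 2 (0.0524) or 3 (0.058) or treated library 1 (0.064) or 2 (0.0702), and PPP1R13L and the checkpoint kinase CHEK1 fell (-0.41, adjusted p = 0.00124). In COV434 CHEK1 was at 8.97 ± 0.649 and 6.53 ± 0.479 FPKM, without overlap and with the same difference of -0.41 (unadjusted p under 0.05, adjusted p = 0.433). PPP1R13L, which encodes iASPP, an inhibitor of p53, was at 25.5, 31.5 and 29.4 FPKM untreated and at 11.1, 11.2 and 12.5 FPKM with 77-39 in KGN (-1.24 ± 0.09, adjusted p = 0.000272). COV434 had 15.5 ± 1.83 and 13.2 ± 1.28 FPKM (-0.22 ± 0.15, adjusted p = 0.822), and the responses differed (-1.02, adjusted p = 0.00981).

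Of 8 genes of ATF4 and CHOP, 5 rose in KGN and 1, DDIT4, fell (17.6% and 16.4% of all genes). ATF4 itself was at 265 ± 10.4 FPKM untreated and 234 ± 10.8 FPKM treated, without overlap (-0.18 ± 0.06, adjusted p = 0.0541), and ASNS, 1 of the 5 that rose, was called in only 2 of 13 alternatives. ATF3 went from 8.4 ± 0.226 to 26.5 ± 0.447 FPKM (1.55 ± 0.04, adjusted p = 1.21e-05) and DDIT3, which encodes CHOP, from 54.2 ± 0.746 to 99.1 ± 1.9 FPKM (0.86 ± 0.04, adjusted p = 0.000116). ATF3 kept its call in all 13 alternatives. In the fit of all 12 libraries DDIT3 (adjusted p = 0.253), CHAC1 (0.241), PSAT1 (0.107) and ASNS (0.449) lost theirs. In COV434 none of the 8 passed an adjusted p. At an unadjusted p under 0.05, 1 of the 8 was higher there and 2 were lower (3.52% and 4.49% of all genes). PSAT1 was the higher one (0.57 ± 0.21, adjusted p = 0.485), and DDIT4 was lower (-0.56 ± 0.17, adjusted p = 0.351). CHAC1, a target of both factors, was the other lower one, at 35.7 ± 4.28 and 22.5 ± 8.16 FPKM (-0.71 ± 0.27, adjusted p = 0.523). The 5 genes moved in KGN with SESN2, GDF15 and TNFRSF10B, the last of which is a known target of CHOP, and their part in the change of those members was not tested.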

How the data were processed

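The 12 libraries were prepared with the Illumina TruSeq RNA kit and sequenced on an Illumina NovaSeq. The labels describe retinas in the extraction text, and the submitters' processing notes name HISAT2 2.0.5 and mouse builds, although the genes are human; the counter, its strand setting and the build used are not given in the sources used here. The deposited values are FPKM, normalized by the authors for gene length and for a library total that differs from the recovered reads. Coordinates of all members match GENCODE release 29 (GRCh38). All genes above 0 gave whole reads within 0.05, by which depth was recovered. No column was left out.

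limma 3.58.1 (R 4.3.3; lmFit, eBayes with a trend) was fitted to log2(FPKM + 1) of the genes whose mean in the fitted libraries reached 1 FPKM, within each line, for the interaction over all 12 libraries, and for the untreated lines. P-values are two-sided and were adjusted by Benjamini-Hochberg over all genes tested, and a call is an adjusted p under 0.05. The script was also run on simulated data, whose changes were larger than those of most members, and no result here rests on that run. Library numbers were examined as pairs by the correlation of same-numbered deviations from group means. It was 0.4, 0.474 and 0.166 in COV434 (taken as paired) and -0.0164, -0.018 and -0.019 in KGN (not paired). Differently numbered libraries of COV434 gave -0.469 to 0.154, the last for untreated library 3 with treated library 2. The pairing thus rests mostly on libraries 1 and 2 and was read from these same data. The library numbers come from the titles. Alternatives were another pseudocount, filters and scaling, voom on the recovered reads, 1 fit of all 12 libraries, the block, and leaving out each library. Reads are not molecules, so counts of 3 reads as a floor cover counting error only.

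All 38 members are named, and per-library values follow the smallest p in each line and comparison and the 4 largest differences between untreated lines in each direction; of the further targets, CDKN1A, BAX, BBC3, PMAIP1 and up to 3 called genes in each direction are named. TRIM22, CHEK1 and the other genes of the small lists were named after their values were seen. The members, lists and tests were chosen with earlier results of these data known. The values of the gene that encodes p53 are not reported here. Sequences are from RefSeq.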

Additional observations from a re-analysis of the deposited data

Results flagged for a closer look

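The responses of 5 members to 77-39 differed between the libraries labelled KGN and COV434 by the interaction test of limma. The log2 fold change in KGN minus that in COV434 was 0.91 for SESN2, which was higher with 77-39 in 3 of 3 libraries of KGN and lower in 3 of 3 of COV434. It was 0.68 for DRAM1, -0.58 for DDB2, -0.78 for BTG2 and -0.47 for FDXR, each with its adjusted p given above. The mean level of DDB2 was 19 FPKM untreated and 13.8 FPKM treated in KGN, and 9.59 and 10.7 FPKM in COV434.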

How the results depend on the processing

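Over all alternatives no called member changed direction. Of 19 members called in KGN, 9 kept their call in all 13 alternatives, and 218 of 247 single values kept theirs. The count of members higher in KGN was 8 instead of 16 in 1 fit of all 12 libraries, in which the wider spread of COV434 enters the error. The count of lower members was 5 instead of 3 under median-ratio scaling, which added PPM1D and APAF1. That scaling called 2344 of all 12671 genes as lower instead of 2077. In COV434 the count higher at an adjusted p was 1 (BTG2) by voom, 1 with the replicate block and 3 (BTG2, FDXR and AEN) in 1 fit of all 12 libraries, instead of 0. At an unadjusted p the count higher was 9 instead of 5 with the block and 3 (without treated library 2) to 6 (without treated library 1) on leaving out 1 library, and the count lower was 1 with a filter at 0.1 FPKM, 1 with no filter, 2 with the block and 3 when all 12 were fitted together, instead of 0, with 0 to 1 on leaving out 1 library. The interaction counts on leaving out 1 library ran from 0 to 3 (more positive in KGN) and from 0 to 5 (more negative), against 2 and 3; that of FDXR was also lost with a filter at 0.1 FPKM (adjusted p = 0.0502) and by voom (0.0779). In KGN, whose numbers did not pair, the block gave 15 members higher and 3 lower, beside 1662 and 1615 of all 12671 genes. It called MDM4 (adjusted p = 0.046) and lost SESN1 and ANKRA2. Between the untreated lines 414 of 417 single values kept their call, and PHLDA3 lost its call in 3 fits. These values include those of the 7 members under 1 FPKM in one line, whose calls are no support, and no count without them was made. Among members at 1 FPKM or more in both untreated lines, a count chosen after seeing the data, 19 instead of 24 were higher and 9 instead of 11 lower in KGN. In the same comparison voom moved the median of all genes from -0.02 to 0.18. Over all genes in COV434, 1 was called higher and 4 lower by limma on FPKM, 12 and 13 by voom, 39 and 48 with the block, and 223 and 257 when all 12 libraries shared a fit; in KGN the last gave 446 and 569 instead of 2230 and 2077. With 3 libraries a group, an exact permutation test of 1 gene could not go below p = 0.1.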
